A study of Mus musculus with 26 samples.

Results

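The comparison set 3 colon samples taken on day 70 of the azoxymethane–dextran sodium sulfate (AOM–DSS) protocol against 3 taken on day 43, all from mice fed the GW3965 diet. The 6 samples were chosen by their titles, from 26 samples in the whole experiment. GW3965 is a synthetic agonist of the liver X receptors (LXR), nuclear receptors that sense oxysterols, and was given in the food. All 6 samples came from wild-type male C57BL/6J mice from 1 vendor, about 10 weeks old at the start, that had received 1 injection of azoxymethane at 10 mg per kg body weight and then repeated 7-day courses of DSS in the drinking water. On the stated schedule, the mice sampled on day 43 had completed 2 courses of DSS, the last ending 8 days earlier, and those sampled on day 70 had completed 3 courses, the last ending 14 days earlier. The remaining samples, used for the estimate of spread and as reference values, were from mice on the same diet at day 22 (3 samples) and at day 0 without AOM or DSS (4 samples), and from mice on the standard diet at days 0, 22, 43 and 70 (4, 3, 3 and 3 samples). The 3 day 43 samples came from cage B, and the 3 day 70 samples from cages J, K and L, so that day, number of DSS courses, time since DSS and cage cannot be told apart.

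AOM is a carcinogen that acts on the colonic epithelium, and DSS damages the epithelial lining, so that the combination gives rounds of injury and regrowth with inflammation, and tumours develop over the weeks that follow. In the colon, stem cells at the crypt base are kept dividing by Wnt signals, and their offspring become absorptive colonocytes, mucus-secreting goblet cells, hormone-secreting enteroendocrine cells and tuft cells. Damage brings neutrophils, monocytes and lymphocytes into the wall, and LXR activation switches on genes of cholesterol efflux and lipid synthesis.

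Each sample is bulk RNA from a piece of colon, so a lower level of a cell type's genes may reflect fewer of those cells or less RNA per cell, and these cannot be told apart. Levels are given as CPM, estimated counts scaled to libraries of equal normalized size, always in the order of replicates 1, 2 and 3. The 6 libraries held between 18964684 and 27251607 estimated counts. The RNA integrity number, a score of RNA quality with a maximum of 10, was 8, 6.8 and 9.3 at day 43 and 9.4, 10 and 10 at day 70. Ribosomal protein genes took 14.3, 19.2 and 11.1% of the counts at day 43 and 4.40, 4.47 and 6.04% at day 70. An index of short against long genes was taken from each gene's log2 difference from the mean of the GW3965 diet day 0 samples. It was the median for genes under 1000 bases minus that for genes over 4000 bases. Its values were 1.51, 1.96 and 1.05 at day 43 and -0.398, -0.179 and 0.0226 at day 70. The days did not overlap in any of these 3 measures. The standard diet libraries differed in the same direction, without overlap, in all 3, with RNA integrity numbers of 2.6, 8.4 and 7.8 at day 43 and 10, 9.5 and 9.9 at day 70 and indices between 1.21 and 1.98 at day 43 and between -0.16 and 0.33 at day 70.

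**Figure D1:**
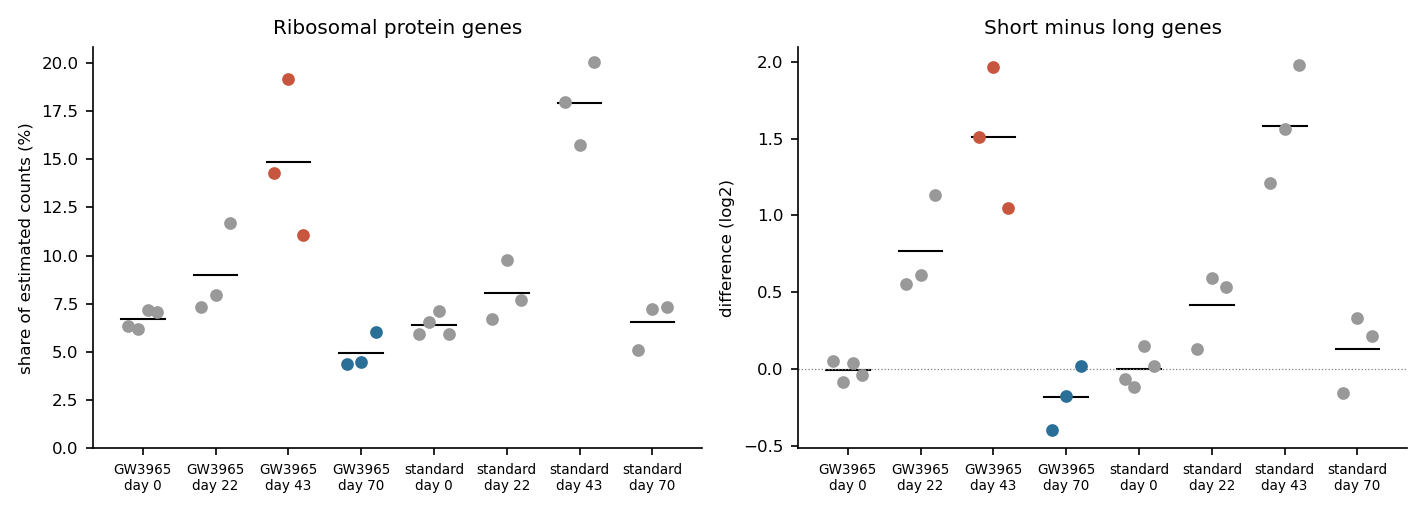
Share of estimated counts on ribosomal protein genes (left, %) and the short-minus-long index (right, log2) in each of the 26 libraries, by diet and day. Points are samples, black lines are group means, and the GW3965 diet day 43 and day 70 samples are coloured. The day 43 libraries lay above the day 70 libraries of the same diet in both panels.

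Replicate 1 of day 70 stood apart from the others in its tissue content. Replicate 2 of day 70 was low in squamous genes beside the other day 70 libraries, as was replicate 2 of day 43 within its day. The summed level of 22 genes of skeletal muscle, a tissue that surrounds the anal canal and is not a layer of the colon wall, was 153, 187 and 623 CPM at day 43 and 35880.0, 101 and 58.5 CPM at day 70, so that replicate 1 of day 70 exceeded every other library. The summed level of 28 genes of stratified squamous epithelium, the lining of the anal canal, was 3988, 809 and 6597 CPM at day 43 and 40380.0, 605 and 19330.0 CPM at day 70. Replicate 2 of day 70 lay just above the highest day 0 sample of the same diet, at 525.9 CPM, and replicates 1 and 3 far above it. *Epcam*, a marker of epithelial cells, measured 1569, 1209 and 1140.0 CPM at day 43 and 436, 1517 and 1661 CPM at day 70, lowest in replicate 1 of day 70. *Cdh17*, an intestinal cadherin, measured 237, 192 and 159 CPM at day 43 and 117, 571 and 310.2 CPM at day 70, so that the intestinal identity given in the labels was detected in all 6 samples. Some results that rest on replicates 1 and 2 of day 70 are given with and without them, and others only with them.

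**Figure D2:**
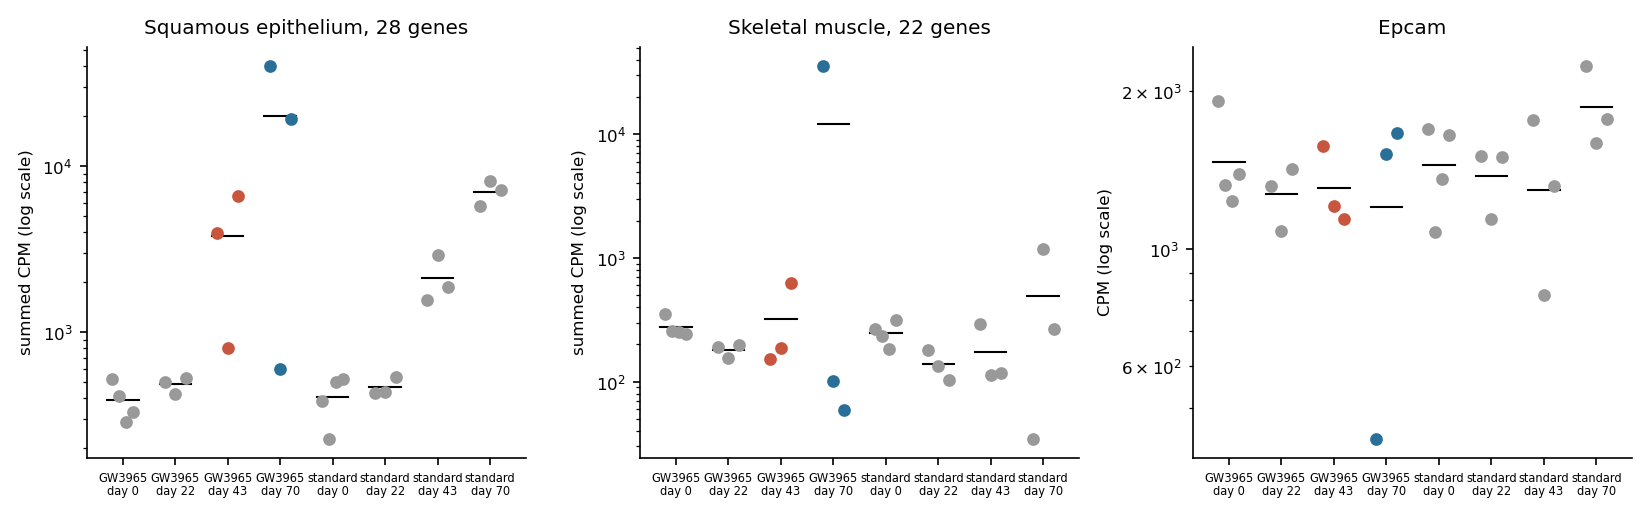
Summed CPM of 28 squamous epithelium genes and of 22 skeletal muscle genes, and CPM of *Epcam*, in each library, all on log axes. Points are samples and black lines are group means. Replicate 1 of GW3965 diet day 70 is the highest point in the first and second panels and the lowest in the third, and replicate 2 of that group lies next to the day 0 and day 22 samples in the squamous panel.

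Between day 43 and day 70 on the GW3965 diet, 15 of 23 Wnt target and stem cell genes were higher at FDR below 0.05. So were 12 of 26 cell cycle genes, 6 of 11 endothelial genes and 8 of 19 matrix genes. None of these lists had a member called lower, but only 11 of the 19 matrix genes had a positive log2 fold change. In the other direction, 84 of 87 ribosomal protein genes, 8 of 10 MHC class II genes, 7 of 18 T cell genes and 6 of 16 B cell genes were called lower. Of 17063 genes tested, 3638 were higher at day 70 (21.3%) and 3059 were lower (17.9%), in all 6697 (39.2%), at FDR below 0.05 in edgeR's quasi-likelihood F-test with Benjamini-Hochberg adjustment. Of these, 2264 rose and 2084 fell by more than 1 on the log2 scale. In 7473 genes (43.8%) the 3 day 70 samples did not overlap the 3 day 43 samples, 3740 of them higher (21.9%) and 3733 lower (21.9%). Without replicate 2 of day 43 the number of genes called was 4237. The median log2 fold change over all genes tested was 0.081. Where a gene is said below to have changed by a value, that value is its log2 fold change. When the share of ribosomal protein counts was added to the model as a term, 0 genes were called, 846 genes had an unadjusted p below 0.05 and the smallest FDR was 0.931. That share did not overlap between the days, so the part of the change that goes with it and the part that goes with the day cannot be told apart.

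The change also followed gene length. Genes with a mean transcript length of 500 to 1000 bases had a median log2 fold change of -1.26, and 55.4% of them were called lower. Genes of 4000 to 8000 bases had a median of 0.72, and 45.5% of them were called higher. On the standard diet the corresponding medians were -1.23 and 0.39. A fit from which each library's trend with gene length had been removed, which was added after the data were seen, called 2399 genes higher (14.1%) and 1641 lower (9.62%), and 3097 of the genes called in the fit without this step were called again. Values from that fit are given below as length-adjusted.

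**Figure D3:**
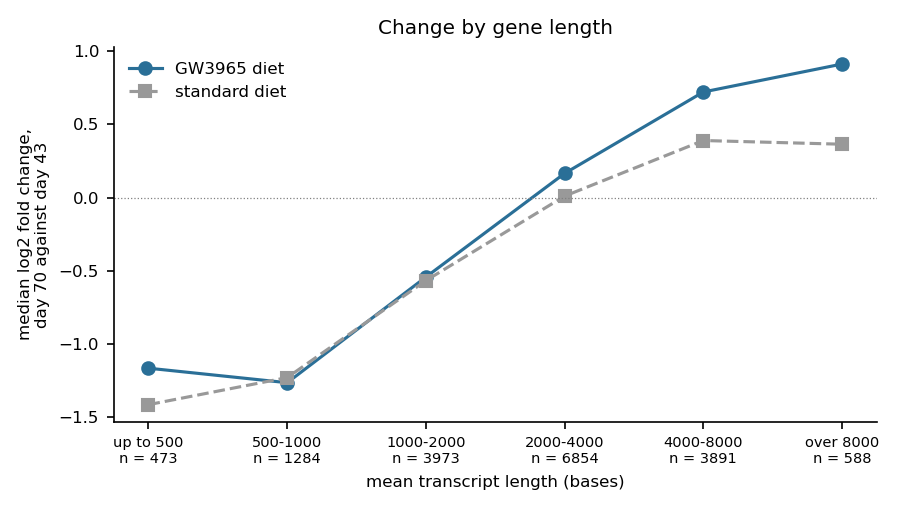
Median log2 fold change of day 70 against day 43 for genes grouped by mean transcript length in bases, with the number of genes in each group, for the GW3965 diet (circles) and the standard diet (squares). The medians rise from below -1 for genes up to 1000 bases to above 0.3 for genes over 4000 bases on both diets.

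Spindle, cohesin, chromatin and lipid synthesis genes were among the 12 higher genes of smallest p. These 12 were taken from called genes whose days did not overlap, so their separation was a condition of choice. *Clasp1*, a microtubule-stabilizing protein of the spindle, measured 13.3, 9.33 and 12.8 CPM at day 43 and 65.1, 36.6 and 43.7 CPM at day 70 (log2 fold change 2.03 ± 0.21 SE, FDR = 8.21e-06). *Smc1a*, a subunit of the cohesin ring that holds sister chromatids, measured 23.4, 15.4 and 24.7 CPM at day 43 and 91.9, 87.6 and 101 CPM at day 70 (log2 fold change 2.14 ± 0.25 SE, FDR = 1.07e-05). In both genes every day 70 sample exceeded every day 43 sample by a wide margin. *Acaca*, the acetyl-CoA carboxylase that begins fatty acid synthesis, measured 23.2, 22.3 and 27.97 CPM at day 43 and 123, 77.3 and 78.3 CPM at day 70 (log2 fold change 1.92 ± 0.22 SE, FDR = 1.07e-05). *Vcp*, an ATPase that extracts proteins for degradation, measured 129, 106 and 136 CPM at day 43 and 468, 405 and 466 CPM at day 70 (log2 fold change 1.85 ± 0.22 SE, FDR = 1.1e-05). *Polr1a*, the largest subunit of RNA polymerase I, measured 6.93, 6.22 and 9.11 CPM at day 43 and 34.7, 25.01 and 30.3 CPM at day 70 (log2 fold change 2.01 ± 0.25 SE, FDR = 1.32e-05). All 3 replicates of day 70 were again above those of day 43, and day 0 samples of the same diet lay between them, with 69.5 ± 4.45 CPM (SD, n = 4) for *Acaca*, 225 ± 15.4 CPM (SD, n = 4) for *Vcp* and 18.2 ± 1.88 CPM (SD, n = 4) for *Polr1a*. *Glg1*, a Golgi glycoprotein, *Chd4*, a chromatin remodeller of the NuRD complex, *Nav2*, *Nup98*, a nuclear pore protein, *Gatad2b*, another NuRD subunit, *Lrpprc*, which stabilizes mitochondrial transcripts, and *Klhdc10* completed this group, with log2 fold changes between 1.35 and 2.33. Length-adjusted log2 fold changes of the 12 genes ranged from 0.70 to 1.65, and all 12 were still called.

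The 12 lower genes of smallest p, chosen under the same condition of days that did not overlap, were mostly short. *Ssr4*, a subunit of the translocon-associated complex of the endoplasmic reticulum, measured 828, 1165 and 474 CPM at day 43 and 97.8, 145 and 154 CPM at day 70 (log2 fold change -2.64 ± 0.27 SE, FDR = 8.21e-06). *Tomm7*, a small subunit of the mitochondrial import pore, measured 155, 228 and 122 CPM at day 43 and 32.5, 35.8 and 51.4 CPM at day 70 (log2 fold change -2.08 ± 0.22 SE, FDR = 8.21e-06). *S100a1*, a calcium-binding protein, measured 216, 333 and 165 CPM at day 43 and 51.4, 60.01 and 50.8 CPM at day 70 (log2 fold change -2.14 ± 0.22 SE, FDR = 8.21e-06). Each of these genes was lower in all 3 day 70 samples, and the day 43 samples kept the order replicate 2, replicate 1, replicate 3 from high to low, the same order as their shares of ribosomal protein counts. *Tmem256*, *Ndufb1-ps*, *Cebpzos*, *Ccdc107*, *Tusc2*, *Cenpx*, a component of the Fanconi and centromere complexes, *Bloc1s1*, of the lysosome-related organelle complex, and the gene models *Gm12481* and *Gm10177* made up the rest, with log2 fold changes between -3.41 and -1.85. *Gm12481* and *Gm10177* may share reads with near-identical copies, and their values are uncertain for that reason. Length-adjusted, *Gm12481* was no longer called, at -0.12 (FDR = 0.76), and the other 11 were.

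Because so many calls moved with gene length or single libraries, the protein-coding genes that were called under all 12 of a set of fits were counted, a choice made after values had been seen. The set held the fit reported first, those leaving out each of the 6 libraries, that with RNA integrity as a term, that with length adjustment and the length-adjusted fits leaving out each day 70 library. The length-adjusted fits without replicates 1, 2 and 3 of day 70 called 10.7%, 15.9% and 9.18% of genes higher and 7.11%, 11.1% and 6.63% lower. In the set, 669 genes were higher (3.92% of those tested) and 579 were lower (3.39%), with non-overlapping groups. The set held 0 members of the Wnt, cell cycle, EGFR family, B cell, MHC class II, goblet cell and matrix lists described below. *Snrpa* and *Sf3b2*, splicing factors, *Ewsr1*, an RNA-binding protein, *Cnot3*, of the deadenylase complex, *Psmd1*, of the proteasome cap, *Ints4*, of the Integrator complex, *Fntb*, a farnesyltransferase subunit, *Ik*, *Anp32a* and *Gar1*, of the small nucleolar ribonucleoproteins, were in the higher group, with length-adjusted log2 fold changes between 1.13 and 1.97. *Ccl9*, a chemokine of myeloid cells with a mean length of 2871 bases, fell, with 133, 177 and 68.04 CPM at day 43 and 13.4, 17.4 and 19.9 CPM at day 70 (log2 fold change -2.90 ± 0.36 SE, FDR = 1.16e-05). *Ensa*, an inhibitor of the phosphatase PP2A, fell from 178, 189.8 and 186 CPM at day 43 to 101, 96.6 and 91.9 CPM at day 70 (log2 fold change -0.94 ± 0.14 SE, FDR = 3.74e-05). Every day 70 sample was below every day 43 sample in both, and for *Ensa* the samples within a day were close together. *Cnih4*, an export receptor of the endoplasmic reticulum, *Slirp*, a partner of *Lrpprc* in mitochondria, *Atp6v0b*, of the vacuolar proton pump, *Serf2*, *Urm1*, *Commd1*, *Mrps16*, *Tomm40l*, *Saysd1*, *Bloc1s5* and *Bet1l* were among the lower genes, with length-adjusted log2 fold changes between -2.08 and -1.29.

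Ribosomal protein genes fell together. Of 87 tested, 84 were lower and 2 were higher at day 70, with a median log2 fold change of -1.77, against 0.081 over all genes. *Rps14* of the small subunit measured 7907, 10839 and 4758 CPM at day 43 and 759.6, 723 and 975 CPM at day 70 (log2 fold change -3.26 ± 0.37 SE, FDR = 1.03e-05). *Rpl9* of the large subunit measured 5578, 7299 and 3005 CPM at day 43 and 572, 577 and 793 CPM at day 70 (log2 fold change -3.03 ± 0.33 SE, FDR = 8.85e-06). In day 0 samples of the same diet, *Rps14* measured 1750.0 ± 124 CPM (SD, n = 4) and *Rpl9* 1496 ± 132 CPM (SD, n = 4), so that the day 70 samples lay below the day 0 level and the day 43 samples above it. *Rpl11* and *Rps7* changed by -2.28 ± 0.27 SE, FDR = 1.1e-05, and -2.35 ± 0.28 SE, FDR = 1.1e-05, respectively. Length-adjusted, 37 of the 87 were lower and 3 higher, with a median of -0.50, and 24 were in the set called under all 12 fits. On the standard diet 81 of the 87 were lower (26.7% of all genes were) and 0 higher (23% of all genes were), with a median of -1.63. The 2 genes that were higher rested on replicates 1 and 2 of day 70. *Rpl3l*, the striated muscle form, measured 0.235, 0.609 and 1.52 CPM at day 43 and 101, 0 and 0.0706 CPM at day 70, and its log2 fold change without replicate 1 of day 70 was -4.27 (FDR = 0.0347). *Rps12-ps3*, a copy of *Rps12*, was at 30.05 and 108 CPM in replicates 1 and 2 of day 70 and at 0 in the other 4 samples, and may share reads with *Rps12* itself.

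Among 13 genes encoded by mitochondrial DNA, 2 were called lower and 0 higher, with a median of -0.26. *mt-Nd3*, a subunit of complex I, measured 1835, 1890.3 and 1163 CPM at day 43 and 695, 282 and 380.2 CPM at day 70 (log2 fold change -1.85 ± 0.41 SE, FDR = 0.0014), and *mt-Co3*, of cytochrome c oxidase, had a log2 fold change of -1.31 ± 0.38 SE, FDR = 0.00919. Both calls were lost with length adjustment, at -0.044 (FDR = 0.958) and 0.018 (FDR = 0.979), and 2 other genes of the 13 were then higher, among them *mt-Nd4l*, another complex I subunit, at 2.38 (FDR = 0.00893).

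**Figure D4:**
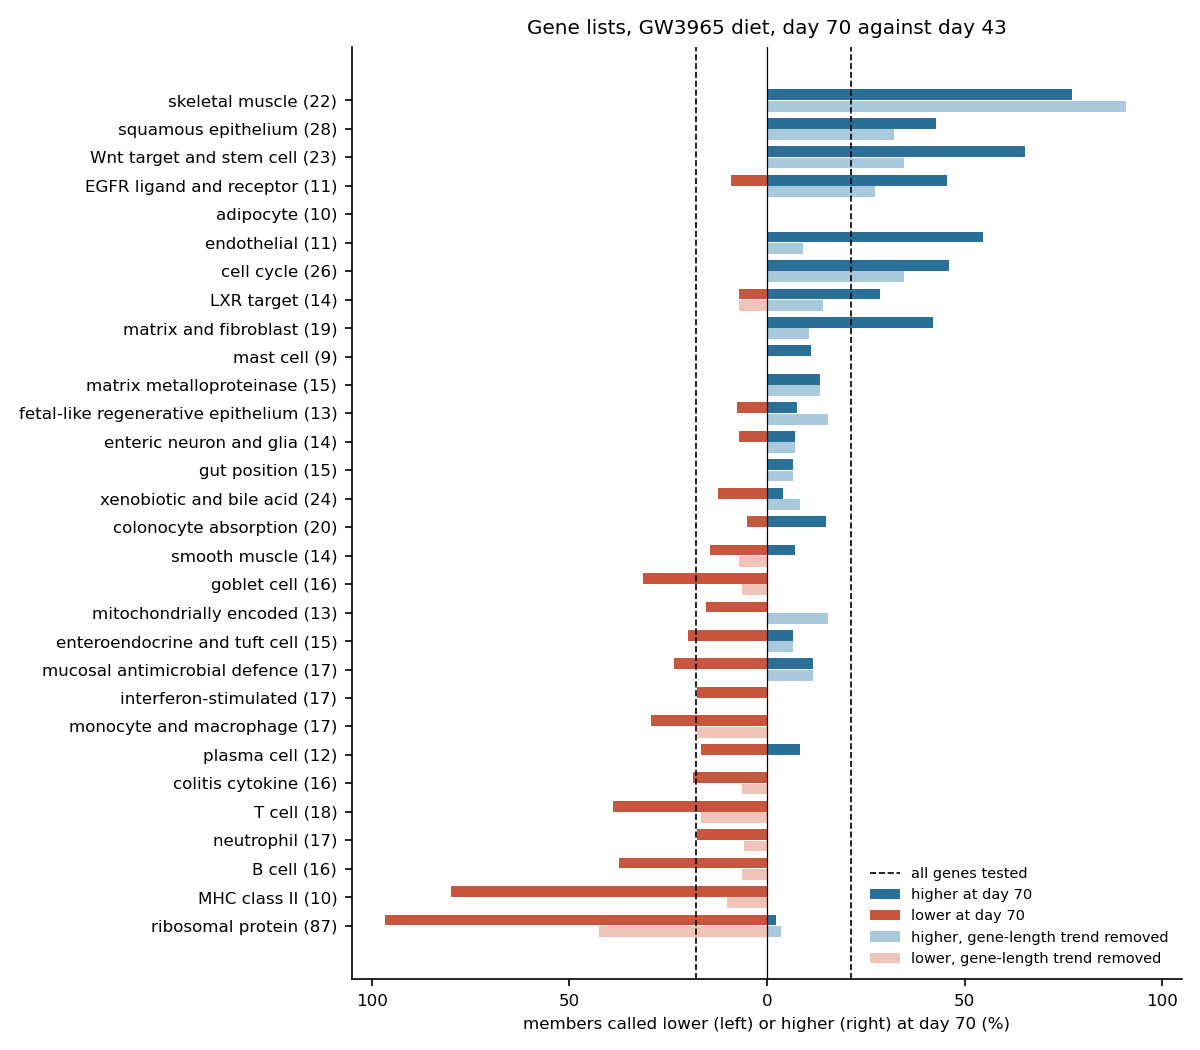
Percentage of the tested members of each of 30 gene lists called higher (right) or lower (left) at day 70 on the GW3965 diet at FDR below 0.05, with the number tested in brackets. Dark bars are the fit reported first, pale bars the length-adjusted fit, and dashed lines the percentages over all genes tested (21.3% higher and 17.9% lower). Skeletal muscle and Wnt lists reach farthest to the right and ribosomal protein and MHC class II farthest to the left, and the pale bars are shorter than the dark in most lists.

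Wnt target and stem cell genes were mostly higher at day 70. All 23 members tested had a positive log2 fold change, 15 were called higher and 0 lower, and the median was 1.65. *Axin2*, a feedback inhibitor and a common readout of Wnt signalling, measured 14.7, 6.76 and 16.3 CPM at day 43 and 38.1, 53.7 and 130.2 CPM at day 70 (log2 fold change 2.55 ± 0.60 SE, FDR = 0.00208). Every day 70 sample exceeded every day 43 sample, with replicate 3 of day 70 highest. *Znrf3*, a membrane ubiquitin ligase that removes Wnt receptors, measured 6.35, 4.80 and 5.88 CPM at day 43 and 24.7, 13.4 and 24.3 CPM at day 70 (log2 fold change 1.87 ± 0.48 SE, FDR = 0.00384). *Ephb2* and *Ephb3*, receptors that position cells along the crypt, had log2 fold changes of 1.42 ± 0.36 SE, FDR = 0.00412, and 1.16 ± 0.25 SE, FDR = 0.000963. *Lgr5*, the marker of crypt base stem cells, was chosen after its values were seen and measured 5.82, 1.96 and 0.784 CPM at day 43 and 10.5, 8.91 and 27.5 CPM at day 70 (log2 fold change 2.46 ± 0.80 SE, FDR = 0.0183). Day 70 and day 43 did not overlap for *Znrf3*, *Ephb2*, *Ephb3* or *Lgr5*. Length-adjusted, *Axin2* was at 2.24 (FDR = 0.0106) and *Ephb3* at 0.76 (FDR = 0.0331), both called. *Ephb2*, at 0.81 (FDR = 0.113), and *Lgr5*, at 1.94 (FDR = 0.075), were then not called. Without replicate 3 of day 70 and without length adjustment, *Lgr5* was at 1.79 (FDR = 0.0967), again not called. In day 0 samples of the same diet, *Axin2* was at 36.5 ± 10.7 CPM (SD, n = 4), *Ephb3* at 37.3 ± 6.29 CPM (SD, n = 4) and *Lgr5* at 6.55 ± 2.50 CPM (SD, n = 4). *Axin2* and *Ephb3* were thus below the day 0 mean in all 3 day 43 samples, while replicate 3 of day 70 was above all day 0 samples for the 3 genes.

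The Wnt counts depended on single libraries. Without replicate 3 of day 70, 7 of 23 were called higher (18.8% of all genes were), with a median of 1.09, whereas without replicate 1 or 2, 16 and 17 were (17.3% and 21.6% of all genes). Without replicate 2 of day 43 the number was also 7 (12.7% of all genes), with a median of 1.51. Length-adjusted, 8 were called (14.1% of all genes), with a median of 1.39, and 0 when replicate 3 was also left out (9.18% of all genes). With the ribosomal share as a term the median was 1.77, with 0 calls.

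Wnt acts through β-catenin and the TCF and LEF proteins, whose core recognition letters are CTTTGA, with CTTTGATC as a longer form, so the promoters of the list were searched for both on both strands, in the 300 bases from 250 before to 50 after the start given by RefSeq (GRCm38.p6). Promoters of 16 of the 23 genes were in that table. CTTTGA or TCAAAG was found in 4 of the 16 (*Lef1*, *Mmp7*, *Sp5* and *Tnfrsf19*, 25%), beside 18.2% of all 27025 genes, and CTTTGATC or GATCAAAG in 2 (*Sp5* and *Tnfrsf19*, 12.5%), beside 1.09% of all genes. Every longer match is also a match of the shorter form. The promoters of *Sp5* and of *Tnfrsf19* are shown for their longer matches and that of *Axin2* for having none, with matches in capitals.
Sp5, chr2:70474673-70474972, plus strand: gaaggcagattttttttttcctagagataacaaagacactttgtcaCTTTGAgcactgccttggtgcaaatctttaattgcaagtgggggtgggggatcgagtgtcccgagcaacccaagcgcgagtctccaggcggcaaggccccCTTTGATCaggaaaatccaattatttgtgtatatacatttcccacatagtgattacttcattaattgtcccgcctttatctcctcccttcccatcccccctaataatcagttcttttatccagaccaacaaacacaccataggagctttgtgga
Tnfrsf19, chr14:61037938-61038237, minus strand: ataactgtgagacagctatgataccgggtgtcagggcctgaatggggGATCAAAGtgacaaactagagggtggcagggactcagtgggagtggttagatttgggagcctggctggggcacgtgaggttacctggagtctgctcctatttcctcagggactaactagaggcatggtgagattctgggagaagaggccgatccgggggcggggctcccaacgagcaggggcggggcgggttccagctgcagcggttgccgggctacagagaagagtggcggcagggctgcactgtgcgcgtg
Axin2, chr11:108920099-108920398, plus strand: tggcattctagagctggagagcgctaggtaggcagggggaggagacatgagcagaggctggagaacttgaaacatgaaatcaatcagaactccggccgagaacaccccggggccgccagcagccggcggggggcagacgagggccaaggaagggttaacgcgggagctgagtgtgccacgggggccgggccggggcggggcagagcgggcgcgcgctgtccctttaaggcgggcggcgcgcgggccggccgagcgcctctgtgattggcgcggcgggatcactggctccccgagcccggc
*Sp5*, a transcription factor gene induced by Wnt, measured 2.82, 0.338 and 0.637 CPM at day 43 and 3.48, 6.19 and 25.9 CPM at day 70 (log2 fold change 3.22 ± 0.97 SE, FDR = 0.0117). *Tnfrsf19*, a receptor found on stem cells, measured 3.11, 2.91 and 6.76 CPM at day 43 and 20.8, 8.36 and 17.5 CPM at day 70 (log2 fold change 1.86 ± 0.60 SE, FDR = 0.0185). Both genes were higher in all 3 day 70 samples, as was *Axin2*, whose window holds neither form. Another listed start of *Tnfrsf19* held no match. The matches describe these letters only and were not related to binding.

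3 receptors of the epidermal growth factor family were higher at day 70. Of 11 tested genes of the EGFR family and its ligands, 5 were higher and 1 lower, with a median of 0.99. *Erbb3*, a receptor that signals through its partners, measured 67.4, 43.4 and 65.98 CPM at day 43 and 126, 300.4 and 170.2 CPM at day 70 (log2 fold change 1.75 ± 0.37 SE, FDR = 0.000902). *Egfr* itself measured 18.7, 13.7 and 20.7 CPM at day 43 and 70.9, 34.04 and 50.2 CPM at day 70 (log2 fold change 1.54 ± 0.27 SE, FDR = 0.000159), and *Erbb2* changed by 1.29 ± 0.32 SE, FDR = 0.003. For each receptor the days did not overlap, and length-adjusted log2 fold changes were 1.07 (FDR = 0.0263), 0.71 (FDR = 0.0341) and, not called, 0.73 (FDR = 0.0631). Among the ligands, *Tgfa* changed by 1.37 ± 0.39 SE, FDR = 0.00848, and *Epgn* by -2.04 ± 0.70 SE, FDR = 0.025, while *Areg*, the ligand linked to repair of damaged mucosa, measured 58.2, 22.6 and 30.3 CPM at day 43 and 22.4, 31.9 and 38.8 CPM at day 70 (log2 fold change -0.25 ± 0.63 SE, FDR = 0.775), with overlapping days. *Egf* was called higher, with 0.999, 1.35 and 1.52 CPM at day 43 and 49.03, 1.88 and 1.34 CPM at day 70, a difference carried by replicate 1 of day 70, the library rich in skeletal muscle genes. Without it the log2 fold change of *Egf* was 0.32 (FDR = 0.64).

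Of 26 cell cycle genes, 12 were higher and 0 lower, with a median of 0.82, and 22 of 26 had a positive log2 fold change. *Mki67*, the antigen of dividing cells, measured 31.9, 32.6 and 30.9 CPM at day 43 and 84.2, 128 and 121 CPM at day 70 (log2 fold change 1.81 ± 0.25 SE, FDR = 2.68e-05). *Top2a*, the topoisomerase of replicating DNA, measured 44.8, 40.8 and 33.1 CPM at day 43 and 80.2, 129 and 169 CPM at day 70 (log2 fold change 1.67 ± 0.36 SE, FDR = 0.00104). The 3 day 43 samples were close together for *Mki67*, below the day 0 level of 54.6 ± 7.75 CPM (SD, n = 4), and the 3 day 70 samples were above that level. *Cenpe* and *Cenpf*, kinetochore proteins encoded by long transcripts, had log2 fold changes of 1.63 ± 0.26 SE, FDR = 7.86e-05, and 1.61 ± 0.29 SE, FDR = 0.000254. Length-adjusted, 9 of 26 were called (14.1% of all genes), with a median of 0.80, and *Mki67* was at 1.004 (FDR = 0.0171). With replicate 1, 2 or 3 of day 70 also left out, 15, 3 and 1 were called (10.7%, 15.9% and 9.18% of all genes). Without replicate 3 of day 70, 8 were called (18.8% of all genes). On the standard diet 19 were (23% of all genes), with a median of 1.19.

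**Figure D5:**
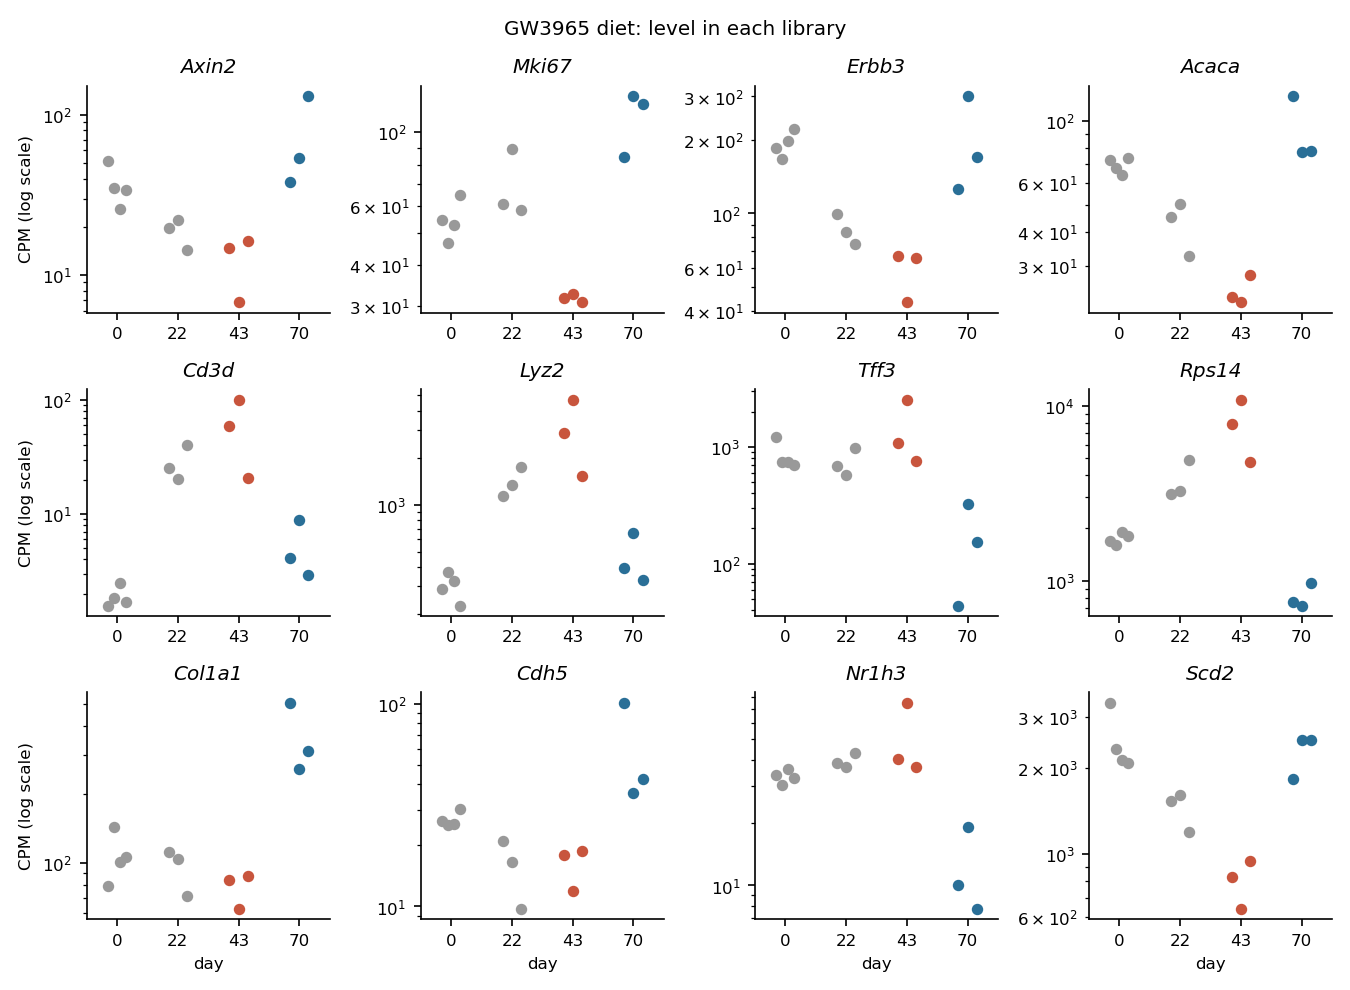
CPM of 12 genes in each library of the GW3965 diet at days 0, 22, 43 and 70, on log axes. Each point is a sample, with day 43 and day 70 coloured. The day 43 and day 70 points do not overlap in any of the 12 genes, and day 70 is above day 43 for *Axin2*, *Mki67*, *Erbb3*, *Acaca*, *Col1a1*, *Cdh5* and *Scd2* and below it for *Cd3d*, *Lyz2*, *Tff3*, *Rps14* and *Nr1h3*.

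Immune cell lists gave genes called lower at day 70 and none called higher, plasma and mast cells excepted, and most of these counts changed when 1 library was left out. Of 18 T cell genes, 7 were lower and 0 higher, with a median of -1.35. *Cd3d*, a subunit of the T cell receptor complex, measured 58.8, 101 and 20.8 CPM at day 43 and 4.15, 8.77 and 2.93 CPM at day 70 (log2 fold change -3.505 ± 0.64 SE, FDR = 0.000239). *Gzma*, a protease of cytotoxic cells, measured 40.1, 47.2 and 7.89 CPM at day 43 and 1.84, 3.72 and 1.38 CPM at day 70 (log2 fold change -3.77 ± 0.71 SE, FDR = 0.000308). Both were below every day 43 sample in all 3 day 70 samples, and they were the 2 T cell genes in the set called under all 12 fits. *Lck*, the kinase downstream of the receptor, changed by -2.001 ± 0.50 SE, FDR = 0.00336, and *Trbc2*, a receptor constant region, by -2.17 ± 0.60 SE, FDR = 0.00672. *Cd8a* measured 6.52, 12.8 and 3.04 CPM at day 43 and 2.10, 5.97 and 0.848 CPM at day 70 (log2 fold change -1.32 ± 0.62 SE, FDR = 0.0974), *Gzmb* had a log2 fold change of -1.38 ± 0.56 SE, FDR = 0.0539, and *Cd69*, an activation marker, of -1.54 ± 0.78 SE, FDR = 0.125, all 3 with overlapping days and not called. Day 0 levels were 1.89 ± 0.402 CPM (SD, n = 4) for *Cd3d* and 0.647 ± 0.334 CPM (SD, n = 4) for *Gzma*, below all day 70 samples. Leaving out 1 library at a time, the number of T cell genes called lower ranged from 3 without replicate 2 of day 43 (11.6% of all genes were) to 10 without replicate 2 of day 70 (18.3%).

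B cell genes split the day 70 samples. Of 16 tested, 6 were lower and 0 higher, with a median of -1.53. *Ms4a1*, which encodes CD20, measured 117, 190.4 and 58.2 CPM at day 43 and 6.76, 64.3 and 3.25 CPM at day 70 (log2 fold change -2.29 ± 0.82 SE, FDR = 0.0302). *Cd79b*, a subunit of the B cell receptor, measured 119, 222 and 62.1 CPM at day 43 and 9.88, 61.1 and 3.96 CPM at day 70 (log2 fold change -2.42 ± 0.82 SE, FDR = 0.0226). Replicate 2 of day 70 was near the lowest day 43 sample for both, and replicates 1 and 3 were far below. At day 0 *Ms4a1* was at 19.5 ± 7.03 CPM (SD, n = 4), under replicate 2 of day 70 and above replicates 1 and 3. *Cr2*, the complement receptor of B cells and follicular dendritic cells, measured 24.6, 28.7 and 14.4 CPM at day 43 and 3.94, 40.2 and 1.45 CPM at day 70 (log2 fold change -0.57 ± 0.81 SE, FDR = 0.601). For *Cr2* replicate 2 of day 70 was the highest of all 6 samples. The summed level of the 16 genes was 766, 1136 and 469 CPM at day 43 and 109.7, 680.3 and 44.8 CPM at day 70. Leaving out replicate 2 raised the number called lower to 15 of 16 (18.3% of all genes were), and leaving out replicate 1 or replicate 3 gave 0 and 0 (14.9% and 15.6% of all genes). Without replicate 1 or 2 of day 43 it was 2 and 0 (15.1% and 11.6% of all genes). *Cxcl13*, the chemokine that draws B cells into follicles, changed by -1.96 ± 0.69 SE, FDR = 0.0276, and *Cd72* by -1.59 ± 0.53 SE, FDR = 0.0215, with overlapping days. On the standard diet all 16 were lower (26.7% of all genes were), with a median of -4.67. The difference between diets was called for 0 of the 16, in a test that called 2 of 17063 genes. For *Ms4a1*, *Cd79b*, *Cr2*, *Cxcl13* and *Cd72* that difference was 2.59, 2.93, 5.43, 1.28 and 1.98, with FDR between 0.157 and 0.524. The lack of calls therefore does not show that the diets changed alike.

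Antibody-secreting plasma cell genes gave 2 lower and 1 higher of 12 (17.9% and 21.3% of all genes were). *Jchain*, which joins IgA and IgM units, measured 5061, 9838 and 2477 CPM at day 43 and 371, 1918 and 206 CPM at day 70 (log2 fold change -2.80 ± 0.99 SE, FDR = 0.0285), and *Mzb1*, a chaperone of antibody secretion, measured 168, 434 and 80.04 CPM at day 43 and 11.9, 48.6 and 5.16 CPM at day 70 (log2 fold change -3.37 ± 0.90 SE, FDR = 0.00539). Replicate 2 of day 70 was again the highest of its day. The higher member was *Sdc1*, a syndecan that epithelial cells also carry, at 1.07 ± 0.40 SE, FDR = 0.0373. Length-adjusted, 0 were lower and 0 higher, with *Jchain* at -2.03 (FDR = 0.11) and *Mzb1* at -2.07 (FDR = 0.0618).

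MHC class II genes, which present antigen to T cells, gave 8 lower of 10, with a median of -1.58, and all 10 had a negative log2 fold change. *H2-Ab1* measured 1312, 1576 and 814 CPM at day 43 and 339, 743 and 334 CPM at day 70 (log2 fold change -1.39 ± 0.45 SE, FDR = 0.0197). *H2-DMb1*, which edits the peptide load, changed by -1.64 ± 0.45 SE, FDR = 0.00662, *H2-DMa* by -1.59 ± 0.47 SE, FDR = 0.0109, and *H2-Ob* by -2.21 ± 0.72 SE, FDR = 0.0193. The count depended on single libraries at both days. It was 1 of 10 without replicate 1 of day 70, 1 without replicate 3 of day 70 and 1 without replicate 2 of day 43 (14.9%, 15.6% and 11.6% of all genes), and 4 without replicate 1 of day 43 (15.1%). Length-adjusted, 1 was called (9.62% of all genes were lower), *H2-Ob*, at -1.95 (FDR = 0.0474).

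Monocyte and macrophage genes gave 5 lower and 0 higher of 17, with a median of -0.57. *Lyz2*, the lysozyme of myeloid cells, measured 2867, 4704 and 1519 CPM at day 43 and 393, 657 and 329 CPM at day 70 (log2 fold change -2.72 ± 0.46 SE, FDR = 0.000125). *Ms4a7*, a marker of tissue macrophages, measured 34.2, 60.6 and 36.98 CPM at day 43 and 10.6, 14.99 and 7.84 CPM at day 70 (log2 fold change -1.98 ± 0.37 SE, FDR = 0.000299). In both genes all 3 day 70 samples were below all 3 day 43 samples, and *Lyz2* was in the set called under all 12 fits. *Trem2*, a lipid-sensing receptor, changed by -1.83 ± 0.45 SE, FDR = 0.00319, and the complement genes *C1qa* and *C1qb* by -1.33 ± 0.41 SE, FDR = 0.0135, and -1.45 ± 0.41 SE, FDR = 0.00803. Without replicate 2 of day 43, 3 were called (11.6% of all genes). All 17 neutrophil genes had a negative log2 fold change, with a median of -1.37, and 3 were called, a share near the 17.9% of all genes. The summed level of the list overlapped between the days, with 4234, 1870.0 and 1007 CPM at day 43 and 1286, 293 and 2134 CPM at day 70, and 0 of 17 were called without replicate 2 of day 43. *Clec4e*, a receptor of myeloid cells, measured 51.9, 65.6 and 15.2 CPM at day 43 and 3.63, 7.62 and 13.1 CPM at day 70 (log2 fold change -2.44 ± 0.75 SE, FDR = 0.014), and *Clec4d* changed by -2.28 ± 0.80 SE, FDR = 0.0283. *Camp*, an antimicrobial peptide of neutrophil granules, measured 13.5, 15.9 and 0.833 CPM at day 43 and 1.69, 0 and 0.212 CPM at day 70 (log2 fold change -4.04 ± 1.34 SE, FDR = 0.0206), and was already low in replicate 3 of day 43.

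Cytokines of colitis gave 3 lower and 0 higher of 16, a share near the 17.9% of all genes, with a median of -1.03. Without replicate 1 or 2 of day 43, 0 and 0 were called lower. *Il17a*, a cytokine of mucosal T cells, measured 14.5, 11.97 and 1.03 CPM at day 43 and 1.48, 1.25 and 1.80 CPM at day 70 (log2 fold change -2.59 ± 0.94 SE, FDR = 0.0327), so that replicate 3 of day 43 was at the day 70 level. *Tnfsf11*, which encodes RANKL, measured 21.9, 19.3 and 7.59 CPM at day 43 and 2.82, 6.26 and 3.71 CPM at day 70 (log2 fold change -1.92 ± 0.60 SE, FDR = 0.0145), and *Il10*, an anti-inflammatory cytokine, changed by -2.23 ± 0.76 SE, FDR = 0.0243. *Tnf* measured 26.03, 27.6 and 7.25 CPM at day 43 and 4.76, 9.76 and 8.76 CPM at day 70 (log2 fold change -1.38 ± 0.57 SE, FDR = 0.0576) and was not called. Of 17 interferon-stimulated genes 3 were lower and 0 higher, again near the 17.9% of all genes, *Isg15* at -2.36 ± 0.54 SE, FDR = 0.0018, *Oas1a* at -1.003 ± 0.32 SE, FDR = 0.0179, and *Irf7* at -1.19 ± 0.41 SE, FDR = 0.0248, and 0 were called with length adjustment. Of the other immune lists, length adjustment left 3 of 18 T cell genes and 3 of 17 monocyte and macrophage genes lower. It left 1 of 16 B cell, 1 of 17 neutrophil and 1 of 16 cytokine genes lower, shares below the 9.62% of all genes in that fit. On the standard diet 15 of 18 T cell genes, 14 of 17 monocyte and macrophage genes and 12 of 17 neutrophil genes were lower (26.7% of all genes were). Their medians were -2.52, -2.23 and -2.97. Mast cell genes gave 1 higher of 9, *Kit*, at 0.74 ± 0.23 SE, FDR = 0.0136, a receptor that interstitial cells of the gut wall also carry. *Mcpt4*, a mast cell protease, was at 0.646, 0.271 and 1.76 CPM at day 43 and 3.38, 1.55 and 1.62 CPM at day 70.

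Goblet cell genes were partly lower, and the lower members were short. Among 16 goblet cell genes 5 were lower and 0 higher, with a median of -0.26. *Tff3*, the trefoil peptide of mucus, measured 1069.8, 2537 and 756 CPM at day 43 and 43.8, 324 and 153 CPM at day 70 (log2 fold change -3.07 ± 0.53 SE, FDR = 0.000147). *Spink4*, a secreted protease inhibitor of goblet cells, measured 1528, 2906 and 900.0 CPM at day 43 and 92.5, 391 and 313 CPM at day 70 (log2 fold change -2.74 ± 0.46 SE, FDR = 0.000104). All 3 day 70 samples were below all 3 day 43 samples for both, with replicate 1 of day 70 lowest. *Zg16*, a lectin of the mucus layer, *Agr2*, a mucin-folding enzyme, and *Retnlb*, a resistin-like protein, had log2 fold changes of -2.43 ± 0.75 SE, FDR = 0.0134, -1.81 ± 0.47 SE, FDR = 0.00433, and -2.43 ± 0.80 SE, FDR = 0.0193. *Muc2*, the main mucin, was chosen after its values were seen and measured 123, 173 and 61.4 CPM at day 43 and 92.9, 196 and 103 CPM at day 70 (log2 fold change 0.14 ± 0.41 SE, FDR = 0.815), with overlapping days. Mean lengths of the 5 lower genes were 397 to 785 bases, and length-adjusted only *Tff3* was called, at -1.45 (FDR = 0.0245). The count was 3 without replicate 2 of day 43 and 9 without replicate 2 of day 70 (11.6% and 18.3% of all genes).

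Of 20 genes of colonocyte absorption 3 were higher and 1 lower, both below the shares of all genes (21.3% and 17.9%). *Scnn1a*, a subunit of the epithelial sodium channel, measured 34.6, 19.1 and 35.7 CPM at day 43 and 68.3, 88.9 and 64.3 CPM at day 70 (log2 fold change 1.31 ± 0.42 SE, FDR = 0.0167). The days did not overlap. *Guca2a*, the guanylin precursor, changed by -1.86 ± 0.45 SE, FDR = 0.0027. With length adjustment 0 of the 20 were called. Enteroendocrine and tuft cell genes gave 3 lower and 1 higher of 15 (17.9% and 21.3% of all genes were). The hormone genes *Insl5*, *Sst* and *Pyy* changed by -2.46 ± 0.64 SE, FDR = 0.00466, -1.89 ± 0.44 SE, FDR = 0.00207, and -1.24 ± 0.47 SE, FDR = 0.0402. *Avil*, an actin-binding protein of tuft cells, measured 3.76, 1.69 and 1.03 CPM at day 43 and 4.45, 14.2 and 36.8 CPM at day 70 (log2 fold change 3.10 ± 0.61 SE, FDR = 0.000481), highest in replicate 3 of day 70 and only just above the day 43 range in replicate 1, and was in the set called under all 12 fits. Length-adjusted, 0 of the 15 were lower, so that the 3 hormone calls were lost, and 1, *Avil*, was higher. In the list of regenerative, fetal-like epithelium 1 of 13 was higher and 1 lower. *Gja1*, a gap junction protein, was at 133, 42.3 and 113 CPM at day 43 and 585, 48.1 and 346 CPM at day 70 (log2 fold change 1.77 ± 0.53 SE, FDR = 0.0116), with replicate 2 of day 70 inside the day 43 range, and *Tnfrsf12a* changed by -1.33 ± 0.50 SE, FDR = 0.0372. Without replicate 1 of day 70, *Gja1* was at 1.05 (FDR = 0.124) and was not called. *Ly6a*, which encodes Sca-1, measured 1678, 1585 and 757 CPM at day 43 and 299.9, 904 and 873 CPM at day 70 (log2 fold change -0.95 ± 0.38 SE, FDR = 0.0529) and was not called.

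Of 17 antimicrobial genes 2 were higher and 4 lower (21.3% and 17.9% of all genes were). Without replicate 2 of day 43, 1 was higher and 0 were lower (12.7% and 11.6% of all genes). *Saa1*, an acute-phase protein, measured 2453, 3567 and 590.4 CPM at day 43 and 62.5, 957 and 188 CPM at day 70 (log2 fold change -2.45 ± 0.68 SE, FDR = 0.00719), with replicate 3 of day 43 and replicate 2 of day 70 overlapping. *Saa3* changed by -3.12 ± 0.94 SE, FDR = 0.0118, *Il18* by -1.25 ± 0.40 SE, FDR = 0.0183, and *Reg3b*, a lectin that kills bacteria, by -2.54 ± 1.01 SE, FDR = 0.0494. *Dmbt1*, a mucosal scavenger glycoprotein, measured 1499, 1306 and 805 CPM at day 43 and 1674, 6982 and 1974 CPM at day 70 (log2 fold change 1.56 ± 0.49 SE, FDR = 0.0161), with replicate 2 of day 70 well above the rest, and *Duox2*, the epithelial oxidase, changed by 1.04 ± 0.33 SE, FDR = 0.0156. Without replicate 2 of day 70, *Dmbt1* was at 0.61 (FDR = 0.271) and *Duox2* at 0.49 (FDR = 0.193), neither called. The 4 lower genes had mean lengths of 563 to 858 bases and the 2 higher ones 5556 and 6012 bases, and none of the 6 was called with length adjustment. Of 24 genes of xenobiotic and bile acid handling, 3 were lower and 1 higher, both below the shares of all genes (17.9% and 21.3%). *Slc51b*, a bile acid exporter subunit, and the lipid carriers *Fabp2* and *Fabp6* changed by -2.24 ± 0.60 SE, FDR = 0.00579, -2.002 ± 0.62 SE, FDR = 0.0134, and -1.28 ± 0.49 SE, FDR = 0.0433, and *Abcc2*, a conjugate exporter, by 2.01 ± 0.76 SE, FDR = 0.0405. These 4 calls were lost with length adjustment, where 0 of the 24 were lower and 2 others higher. *Cyp27a1*, which makes the LXR ligand 27-hydroxycholesterol, measured 20.9, 26.3 and 21.2 CPM at day 43 and 35.7, 14.3 and 16.5 CPM at day 70 (log2 fold change -0.043 ± 0.35 SE, FDR = 0.934).

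Several genes of vessels and collagen matrix were higher. Of 11 endothelial genes, 6 were higher and 0 lower, with a median of 0.90. *Cdh5*, which encodes VE-cadherin, measured 17.9, 11.9 and 18.7 CPM at day 43 and 101, 36.4 and 42.5 CPM at day 70 (log2 fold change 1.89 ± 0.36 SE, FDR = 0.00032), and *Kdr*, the VEGF receptor, measured 10.6, 11.03 and 10.97 CPM at day 43 and 42.2, 18.6 and 20.4 CPM at day 70 (log2 fold change 1.31 ± 0.30 SE, FDR = 0.00162). Replicate 1 of day 70 was highest in both, and the days did not overlap. *Vwf*, the platelet-binding factor of vessel walls, changed by 1.68 ± 0.40 SE, FDR = 0.00212, and *Prox1*, a transcription factor of lymphatic vessels that is also in the Wnt list, by 2.81 ± 0.88 SE, FDR = 0.0149. Without replicate 1 of day 70, 3 were called, and 3 without replicate 2 of day 43 (17.3% and 12.7% of all genes). Length-adjusted, *Cdh5* alone was called, at 1.48 (FDR = 0.00351).

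Of 19 matrix and fibroblast genes 8 were called higher and 0 lower, with a median of 0.48. In 5 genes of the list all day 70 samples were above all day 43 samples, and in 3 they were all below. *Col1a1*, the main chain of type I collagen, measured 83.96, 62.6 and 87.6 CPM at day 43 and 508, 260.2 and 310.5 CPM at day 70 (log2 fold change 2.20 ± 0.52 SE, FDR = 0.00203). *Col5a1*, a fibril-nucleating collagen chain, measured 17.2, 17.3 and 26.2 CPM at day 43 and 101, 57.02 and 53.5 CPM at day 70 (log2 fold change 1.80 ± 0.37 SE, FDR = 0.000754). The days did not overlap for either, with replicate 1 of day 70 highest. *Col1a2* and *Col5a2* changed by 1.40 ± 0.37 SE, FDR = 0.00496, and 1.14 ± 0.32 SE, FDR = 0.00734. Length-adjusted, *Col1a1* and *Col5a1* were called, at 1.49 (FDR = 0.0326) and 0.96 (FDR = 0.0386), and the median of the list was -0.14. Without replicate 1 of day 70 the list gave 5 higher and 2 lower (17.3% and 14.9% of all genes). Among 15 metalloproteinases and their inhibitors *Mmp14*, the membrane-bound collagenase, rose, with 84.4, 34.8 and 66.4 CPM at day 43 and 159, 132 and 241 CPM at day 70 (log2 fold change 1.52 ± 0.29 SE, FDR = 0.000397), and *Mmp2*, which it activates, changed by 1.28 ± 0.42 SE, FDR = 0.0196. *Mmp14* was in the set called under all 12 fits. *Mmp2* was at 0.85 (FDR = 0.141) without replicate 1 of day 70 and was not called. *Mmp13*, another collagenase, ranged from 3.79 to 118 CPM within day 70.

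Smooth muscle genes gave 2 lower and 1 higher of 14 (17.9% and 21.3% of all genes were). *Tagln*, an actin-binding protein of contractile cells, measured 3072, 4423 and 5441 CPM at day 43 and 1349.8, 697 and 1154 CPM at day 70 (log2 fold change -2.01 ± 0.47 SE, FDR = 0.00185), and *Cnn1*, calponin, changed by -1.44 ± 0.47 SE, FDR = 0.0178. *Ano1*, a chloride channel of pacemaker cells and of epithelia, changed by 1.10 ± 0.40 SE, FDR = 0.033. *Myh11*, the smooth muscle myosin, measured 277, 162 and 689.6 CPM at day 43 and 1594, 452 and 608 CPM at day 70 (log2 fold change 1.23 ± 0.63 SE, FDR = 0.123), so that members of the list did not move one way. Of 14 genes of enteric neurons and glia, *Vip*, a neuropeptide, fell, at -1.74 ± 0.45 SE, FDR = 0.00438, and *Nos1* was called higher with 1.35, 1.29 and 2.94 CPM at day 43 and 86.5, 2.47 and 3.36 CPM at day 70. *Nos1* is also made in skeletal muscle fibres, and without replicate 1 of day 70 its log2 fold change was 0.64 (FDR = 0.501).

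Skeletal muscle and squamous epithelium gave large fold changes that were uneven among the day 70 libraries. The skeletal muscle genes followed replicate 1 alone, while the squamous genes were high in replicates 1 and 3. Of 22 skeletal muscle genes 17 were called higher, with a median of 5.77, although in 0 of the 22 did the days separate. *Mybpc2*, a fast-fibre myosin-binding protein, measured 0.588, 0.609 and 5.09 CPM at day 43 and 1231, 0.405 and 0.848 CPM at day 70, and *Neb*, nebulin, measured 0.881, 1.62 and 3.04 CPM at day 43 and 518, 1.69 and 0.671 CPM at day 70. Without replicate 1 of day 70, 0 were higher and 10 lower (17.3% and 14.9% of all genes), with a median of -3.61. *Ttn*, titin, and *Myh2*, a fast myosin, went from 7.42 and 6.24 to -2.24 (FDR = 0.189) and -0.32 (FDR = 0.872). Of 10 adipocyte genes 0 were called, and *Lpl*, lipoprotein lipase, was highest in the same library, with 17.4, 33.6 and 17.5 CPM at day 43 and 132, 32.2 and 10.1 CPM at day 70.

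Of 28 squamous epithelium genes 12 were higher and 0 lower, with a median of 2.57. *Flg*, filaggrin of the cornified layer, measured 1.88, 0.406 and 4.80 CPM at day 43 and 764, 0 and 18.7 CPM at day 70 (log2 fold change 6.75 ± 1.51 SE, FDR = 0.00141), and *Lor*, loricrin, measured 2.82, 0.947 and 18.2 CPM at day 43 and 1364, 1.18 and 60.4 CPM at day 70 (log2 fold change 6.002 ± 1.46 SE, FDR = 0.00278). *Trp63*, the p63 transcription factor of basal squamous cells, was chosen after its values were seen and measured 16.1, 1.62 and 25.4 CPM at day 43 and 194, 0.147 and 135 CPM at day 70 (log2 fold change 2.92 ± 1.07 SE, FDR = 0.0338). *Pkp1*, a desmosomal plaque protein, measured 54.1, 9.40 and 103 CPM at day 43 and 824, 58.9 and 539 CPM at day 70 (log2 fold change 3.09 ± 0.68 SE, FDR = 0.00122). All 4 genes were above the day 43 range in replicates 1 and 3 of day 70, while replicate 2 was below that range for *Flg* and *Trp63* and inside it for *Lor* and *Pkp1*. *Dsc2*, a desmosomal cadherin that colonocytes also make, was the exception in the list, with 145, 95.5 and 147 CPM at day 43 and 625, 206 and 486 CPM at day 70 (log2 fold change 1.77 ± 0.45 SE, FDR = 0.00385), higher in all 3. Without replicate 2, 23 of 28 were called, and 2 were called without replicate 1 (21.6% and 17.3% of all genes were higher). Without replicate 2 of day 43, 6 were called (12.7% of all genes). *Flg* and *Lor* were not called without replicate 1 of day 70, at 1.96 (FDR = 0.155) and 2.06 (FDR = 0.141). On the standard diet 8 of the 28 squamous genes were higher (23% of all genes were) and 0 lower, with a median of 2.15. Their summed level on that diet was 1564, 2935 and 1877 CPM at day 43 and 5736, 8103 and 7173 CPM at day 70. Of 15 genes that mark position along the gut, including the posterior Hox genes, 1 was higher and 0 lower on the GW3965 diet.

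Of 14 LXR target genes tested, 4 were higher and 1 lower (21.3% and 17.9% of all genes were), with a median of 0.61. The mice ate the agonist at both timepoints. Length-adjusted, 2 were higher and 1 lower (14.1% and 9.62% of all genes), with a median of 0.32. *Scd2*, a desaturase of fatty acids, measured 829.6, 640.4 and 939 CPM at day 43 and 1818, 2506 and 2502 CPM at day 70 (log2 fold change 1.503 ± 0.32 SE, FDR = 0.000911). *Lpcat3*, which loads polyunsaturated chains onto phospholipids, measured 88.5, 53.2 and 80.1 CPM at day 43 and 124, 142 and 176 CPM at day 70 (log2 fold change 0.99 ± 0.25 SE, FDR = 0.00395). *Srebf1*, the transcription factor of lipid synthesis, measured 356, 259 and 332 CPM at day 43 and 505, 439.9 and 611 CPM at day 70 (log2 fold change 0.72 ± 0.19 SE, FDR = 0.00593). In these genes every day 70 sample exceeded every day 43 sample, and the day 0 levels on the same diet were 2474 ± 607 CPM (SD, n = 4), 109 ± 24.8 CPM (SD, n = 4) and 518 ± 26.2 CPM (SD, n = 4), overlapping the day 70 samples. *Abca1*, the cholesterol efflux pump that is a common readout of LXR, measured 132, 118 and 111 CPM at day 43 and 288, 220.2 and 161 CPM at day 70 (log2 fold change 0.89 ± 0.26 SE, FDR = 0.00928). *Abcg1*, another efflux pump, measured 110.0, 71.4 and 75.7 CPM at day 43 and 109, 179 and 104 CPM at day 70 (log2 fold change 0.61 ± 0.27 SE, FDR = 0.074) and was not called. Without replicate 1 of day 70, *Abca1* was at 0.67 (FDR = 0.0627) and was not called. The *Abca1* transcript is 10209 bases long on average, and its length-adjusted log2 fold change was -0.0063 (FDR = 0.987), while *Lpcat3*, of 2235 bases, was at 1.16 (FDR = 0.00248). *Nr1h3*, which encodes LXRα, fell, with 40.4, 74.9 and 36.7 CPM at day 43 and 10.03, 19.1 and 7.74 CPM at day 70 (log2 fold change -2.04 ± 0.29 SE, FDR = 3.17e-05), and all 3 day 70 samples were below the day 0 level of 33.2 ± 2.45 CPM (SD, n = 4). *Lpcat3* and *Nr1h3* were the members of the list in the set called under all 12 fits.

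On the standard diet *Abca1* measured 38.3, 36.1 and 26.4 CPM at day 43 and 24.4, 45.1 and 33.1 CPM at day 70, and *Abcg1* 7.96, 17.8 and 11.95 CPM at day 43 and 17.3, 21.1 and 26.8 CPM at day 70. At both days all 3 samples of the GW3965 diet were above all 3 of the standard diet for both genes. *Nr1h3* on the standard diet measured 25.4, 38.6 and 47.1 CPM at day 43 and 5.73, 7.49 and 7.52 CPM at day 70, a log2 fold change of -2.42 ± 0.30 SE, FDR = 5.72e-06, and *Scd2* changed by 2.12 ± 0.33 SE, FDR = 3.08e-05.

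The change from day 43 to day 70 was compared between the diets by testing the difference itself, in the same model. It differed for 2 genes of 17063 (0.0117%), and 2501 genes had an unadjusted p below 0.05. *C1s1*, a complement protease, measured 141, 221 and 110.2 CPM at day 43 and 261, 171 and 124 CPM at day 70 on the GW3965 diet and 212, 257 and 257 CPM at day 43 and 53.8, 61.00 and 44.98 CPM at day 70 on the standard diet, with log2 fold changes of 0.24 ± 0.26 SE, FDR = 0.488, and -2.19 ± 0.27 SE, FDR = 5.49e-06 (difference between diets 2.42 ± 0.37, SE, FDR = 0.0179). *Enpp2*, which encodes autotaxin, the enzyme that makes lysophosphatidic acid, measured 31.4, 45.5 and 34.8 CPM at day 43 and 80.00, 46.2 and 33.4 CPM at day 70 on the GW3965 diet and 32.2, 49.4 and 27.3 CPM at day 43 and 13.04, 9.23 and 10.5 CPM at day 70 on the standard diet (difference 2.25 ± 0.35, SE, FDR = 0.0179). On the GW3965 diet the days overlapped for both genes, and on the standard diet all 3 day 70 samples were below all 3 day 43 samples. The standard diet itself gave 3918 genes higher and 4557 lower at day 70, with a median log2 fold change of -0.13. For the lists described above the difference between diets was called for 0 genes. The number of genes with a difference between diets ranged from 0 to 256 over the alternatives tried, so that 2 is not a stable count.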

How the data were processed

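RNA from pieces of mouse colon was sequenced as paired reads after polyA selection. The authors deposited estimated counts per transcript and sample, made with kallisto on GRCm38 cDNA (the software version and annotation release are not given in the sources used here). Estimated counts were summed over 116728 of 119414 transcripts that matched a gene in the annotation, giving 35975 genes, and rounded, and the unmatched transcripts held 0.615 to 0.999% of each library. Totals ran from 18195345 to 41522204 per sample, with a median of 20424701, and their size limits the precision of genes at a few counts.

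Genes were filtered with filterByExpr, normalized by TMM and tested with the quasi-likelihood F-test of edgeR 4.0.16 (R 4.3.3, limma 3.58.1) over all 26 samples in a model of the 8 groups of diet and day, with day 0 groups pooling 22 and 43 days of diet. In all 17063 genes were tested, and p-values were adjusted by Benjamini-Hochberg over all of them, with an FDR threshold of 0.05. The sources do not settle whether each sample is 1 mouse or a pool of several, so p-values measure only the spread between these samples. The study's own model held a ribosomal RNA percentage, which was not used here, and the share of counts on ribosomal protein genes was fitted as an alternative instead. A standard diet sample of day 43 had an RNA integrity number of 2.6, and 1 day 0 sample had a title and a diet label that disagree, and both were left out in alternatives. DESeq2 1.42.0 was another alternative.

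Genes named were the 12 of smallest p in each direction without overlap, the 4 of smallest p in each of 30 lists, the genes with a difference between diets (at most 5), and genes the study names. Further called members of some lists, the 15 genes in each direction of smallest length-adjusted p among those called under all 12 fits, and *Lgr5*, *Sp5*, *Tnfrsf19*, *Muc2* and *Trp63* were chosen after values were seen. Some genes met by these rules are not reported here. The samples compared and the gene lists were themselves chosen with earlier results of these data known. Length adjustment subtracted, in each sample, a lowess curve (span 0.3) of log2 CPM (prior count 2) relative to the gene's mean on log2 length. The index of short against long genes used log2(CPM + 0.5). The scripts were run on simulated counts with the same dispersion for all genes. Length bias was put equally on all GW3965 diet day 43 samples, and other tissue in single libraries was not simulated. Such a run checks the scripts only and does not test the results given here.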

Additional observations from a re-analysis of the deposited data

Results flagged for a closer look

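The change from day 43 to day 70 differed between the diets for *C1s1* and *Enpp2* in the test of that difference, with log2 differences of 2.42 and 2.25, and at an FDR of 0.0179 for each. *C1s1* lies at chr6:124530345-124542359 and *Enpp2* at chr15:54838901-54952892 (GRCm38). Each fell in all 3 standard diet samples of day 70, while the days overlapped on the GW3965 diet.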

How the results depend on the processing

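The number of genes called between day 70 and day 43 was 6697, and it was 0 with the share of ribosomal protein counts as a term, 3404 when the 6 samples were fitted alone, 4040 with length adjustment, and 3092 and 2760 with length adjustment and replicate 1 or 3 of day 70 left out. Leaving out each sample in turn gave 4237 (without replicate 2 of day 43) to 6954 (without replicate 2 of day 70), and on the standard diet 6418 to 9066 against 8475. Other scalings, filters and tests kept the count within 1.5 times. The samples were treated as unpaired, and the 2 days came from different cages. Deviations of same-numbered samples correlated at -0.151, 0.447 and -0.0609, which cannot settle whether the replicate numbers pair them. With a replicate block 3310 genes were higher and 3216 lower. Length adjustment was added after the data were seen. What sets the dependence on ribosomal share and length was not tested.

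The number of genes that differed between diets was 2, and it was 5 with RNA integrity as a term, 256 with DESeq2, 136 with the likelihood ratio test, 4 without a filter, 0 when the groups were fitted alone, 63 without the sample of RNA integrity number 2.6, 7 with the replicate block, and 0 (without replicate 1 of day 43) to 188 (without replicate 2 of day 70) with single samples left out.

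Of 154 named genes called, 91 kept their call with length adjustment and 140 with RNA integrity as a term, and 0 with the ribosomal share. Log2 fold changes that turned sign with length adjustment were those of *Abca1* (-0.0063, and -0.042 and -0.0029 without replicates 1 and 2 of day 70), *Fabp6* (0.16, and 0.34 and 0.47 without replicates 1 and 3), *Pyy* (0.26, and 0.61 and 0.26 without replicates 1 and 3) and *mt-Co3* (0.018, and 0.19 and 0.12 without replicates 2 and 3). With length adjustment and without replicate 1 of day 70, *Egf* was at -0.067, *Mybpc2* at -1.97, *Myh2* at -0.85, *Neb* at -1.34, *Plin4* at -2.12, *Ttn* at -2.55, *Il18* at 0.30 and *Rpl3l* at -3.68. Without replicate 2 instead, *Dmbt1* was at -0.066, *Duox2* at -0.19, *Tnfrsf12a* at 0.0042 and *mt-Nd3* at 0.17, and without replicate 3 *Il18* was at 0.16. With the ribosomal share as a term *Camp* was at 0.66, *Il17a* at 1.03, *Jchain* at 0.31, *Kit* at -0.16, *Mmp2* at -0.015, *Reg3b* at 1.38 and *Trp63* at -0.50, and with the replicate block *Rpl3l* was at -1.12. With single samples left out, *Mybpc2* ranged from -1.75 to 9.41, *Myh2* from -0.32 to 10.5, *Neb* from -0.65 to 7.13, *Ttn* from -2.24 to 8.44 and *Rpl3l* from -4.27 to 6.32, the lowest value in each case without replicate 1 of day 70.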
